A study of Homo sapiens with 6 samples.

Results

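The chaperonin CCT, also called TRiC, is a protein-folding machine of the cytosol, and the 9 human genes described here encode its subunits: TCP1, CCT2, CCT3, CCT4, CCT5, CCT6A, CCT6B, CCT7 and CCT8. They were taken by name, and all 9 were among the 17211 genes of the table. The set was proposed with the siYAP against siNT comparison already known, so the members' own differences between the groups are a description: no p is given for them, and their calls in the fit across all genes are counted without anything being read from them. The 6 poly(A) RNA-seq libraries came from CAOV2, a human ovarian cancer cell line whose sample titles also call the cells primary. All 6 cultures received 100 pmol of siRNA with 6 µL of lipid reagent for 2 days and were collected at day 3: 3 (siNT) got a non-targeting siRNA and 3 (siYAP) an siRNA reagent against YAP, a transcriptional co-activator of the Hippo pathway. Since siYAP and siNT were bought from 2 makers, a difference between the groups may belong to the reagent or to the loss of YAP, and these cannot be told apart. The labels call the libraries biological replicates without naming separate passages, so each spread below is that between these libraries.

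CCT is built of a pair of stacked rings. Each ring holds 8 different but related subunits, each at a fixed place. A client protein enters the central cavity unfolded, and ATP-driven closing of a lid built into the subunits encloses it while it folds. Actin and tubulin are its best-known obligate clients, handed over by the co-chaperone prefoldin, and several proteins with WD40 propellers, such as CDC20, also depend on it. CCT6A and CCT6B encode alternative forms of the same subunit, and CCT6B is known mainly from testis.

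The whole reads behind the values came to between 25478595 and 31790340 per library. YAP1, the targeted gene, was at 5801 to 6221 normalized read counts in siNT and 278 to 327 in siYAP. Epithelial keratins were abundant, with KRT8 at 35206 ± 1349 in siNT (SD, n = 3). The ovarian carcinoma markers PAX8, MUC16, MSLN and FOLR1, by contrast, had siNT means of 2.63 to 28.8. WT1 and WFDC2 were not found by symbol among the listed genes. Of 12 epithelial and ovarian carcinoma markers 10 were measured: 3 fell, 2 rose and 5 were not called, and their sum was 96365 to 104815 in siNT and 72621 to 79058 in siYAP. KRT7 (log2 -0.97), KRT18 (-0.68) and KRT19 (-0.29) fell, and CDH1 (0.93) and EPCAM (0.74) rose, with limma adjusted p from 2.68e-14 to 1.36e-05. Of 7 fibroblast markers 6 were measured, and their summed normalized counts were 5609 to 6399 in siNT and 14299 to 14804 in siYAP, mostly from LUM and COL3A1, while COL1A2 was at a mean of 12.6 and 1.25. The leukocyte markers CD14, CD68 and LYZ were at a sum of 137 to 145 and 114 to 136, and PTPRC was not found by symbol among the listed genes. Of 5 endothelial markers 1 was measured, ESAM, at 1673 to 1873 and 1261 to 1338. The part of these markers in the chaperonin values was not tested.

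Every one of the 8 widely expressed subunit genes was lower in all 3 siYAP libraries than in any siNT library, by amounts that ran from 7.70% for CCT6A to 40.4% for CCT7. CCT6B, with far fewer reads, was higher. In the fit across all genes (limma, adjusted p under 0.05), 8 of 9 members were called lower and 1 higher. Over all 17200 genes tested, 56.8% were called, 28.1% lower and 28.6% higher. The groups did not overlap in 61.5% of them, with siYAP below in 30.6% and above in 30.9%. Of the 1285 genes that averaged 5000 normalized counts or more, 74.2% were called and 54.4% were called lower. That limit was chosen after the values were seen, so as to hold the 8 abundant subunits. Nothing is read from the members' counts, since the comparison was known when they were chosen.

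The start regions of the subunit genes are shown first, as a description, and their part in the differences between the groups was not tested. RefSeq promoter sequences on GRCh38.p14, from 250 bases before to 50 bases after the annotated start, were matched for 8 of 9 members. Those of 4 members follow, 5′ to 3′ along the gene: CCT7, which had the largest fall, CCT8 and TCP1, and CCT3, which has the most CCAAT boxes. Capitals mark the letters CCAAT and GAANNTTC or TTCNNGAA (a core of the heat shock element), on either strand. In all 8 matched genes the RefSeq start lies inside the wider GENCODE gene span given below, so the window is that of the RefSeq start alone. The windows of CCT3, CCT5, CCT6B and CCT7 lie wholly inside that span, so they miss the region before the GENCODE start.

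CCT7, chr2:73234058-73234357 (+): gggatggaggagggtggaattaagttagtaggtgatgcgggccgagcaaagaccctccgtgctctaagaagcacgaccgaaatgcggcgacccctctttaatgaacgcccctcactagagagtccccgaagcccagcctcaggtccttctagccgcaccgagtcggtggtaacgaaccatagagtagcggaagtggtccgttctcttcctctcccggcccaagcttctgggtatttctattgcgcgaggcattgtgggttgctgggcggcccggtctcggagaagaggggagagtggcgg
CCT8, chr21:29073599-29073898 (-): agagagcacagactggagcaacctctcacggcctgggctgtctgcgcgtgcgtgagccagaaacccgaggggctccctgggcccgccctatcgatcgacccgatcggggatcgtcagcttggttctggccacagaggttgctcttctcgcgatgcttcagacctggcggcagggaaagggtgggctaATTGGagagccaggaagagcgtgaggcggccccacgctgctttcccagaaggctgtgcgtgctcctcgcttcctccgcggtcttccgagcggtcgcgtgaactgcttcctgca
TCP1, chr6:159789553-159789852 (-): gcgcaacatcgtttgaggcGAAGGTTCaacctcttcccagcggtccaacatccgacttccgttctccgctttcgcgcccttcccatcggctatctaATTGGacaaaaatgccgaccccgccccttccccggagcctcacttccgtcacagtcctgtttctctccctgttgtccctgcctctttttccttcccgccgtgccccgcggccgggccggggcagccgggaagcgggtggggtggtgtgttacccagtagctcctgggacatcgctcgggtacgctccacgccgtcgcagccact
CCT3, chr1:156338243-156338542 (-): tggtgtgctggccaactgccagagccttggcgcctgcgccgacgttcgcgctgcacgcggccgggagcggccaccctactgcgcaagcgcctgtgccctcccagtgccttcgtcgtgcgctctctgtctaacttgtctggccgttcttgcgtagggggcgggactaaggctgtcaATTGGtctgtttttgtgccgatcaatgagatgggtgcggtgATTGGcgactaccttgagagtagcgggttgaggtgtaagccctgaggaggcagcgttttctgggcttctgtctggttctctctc

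Matches were counted on both strands in these windows of 300 bases. CCAAT, the box bound by NF-Y, was present in 5 of the 8 promoters (TCP1, CCT2, CCT3, CCT6B and CCT8) and in 36.2% of the promoters of listed genes. CCT3 held it at 2 places, 75 and 34 bases before the start as read on the reverse strand. GGGCGG, the GC box, was in 6 of 8 and in 68.7% of listed genes. GAANNTTC was in TCP1 alone, and TTCNNGAA in CCT4 and CCT6B, against 4.73% and 5.87% of listed genes. GGAATG, the core letters of the TEAD element, was in 0 of 8 (10.9% of listed genes), as were the E-box CACGTG (9.86%), the NRF1 letters GCGCATGC (5.37%) and the TATA box TATAAA (5.92%). CCGGAA, an ETS core, was in CCT2 and CCT5 (28.3%). The CCT5 window, 10250287 to 10250586, begins after the GENCODE start of that gene at 10249921. Its matches, and the letters it lacks, are thus those of a stretch inside the gene. The window of CCT7, also inside its gene span, held 1 of the letters searched, a GC box after the start. That of CCT8, the member with the next largest fall, held a CCAAT and a GC box, and so did that of CCT3, with a smaller fall. CCT4 and CCT5, also with smaller falls, held neither. A relation between these letters and the fold changes was not tested. A match is a stretch of letters, and no binding was measured here.

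The subunits of the side of the ring known to bind ATP tightly are described first: TCP1, CCT2, CCT4 and CCT5. TCP1 (GRCh38 chromosome 6, 159778498 to 159789749, minus strand), the alpha subunit, was at 14818, 14093 and 14628 normalized counts in siNT replicates 1, 2 and 3 and at 11438, 11480 and 11209 in siYAP. The means were 14513 ± 376 and 11376 ± 146 (SD, n = 3), so that siYAP held 78.4% of the siNT level (log2 fold change -0.35, standard error 0.0395). The groups were apart by 2613 counts at their nearest libraries.

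CCT2, the beta subunit (chromosome 12, 69585334 to 69601570, plus strand), was at 14772, 13618 and 14129 in siNT and at 10168, 10324 and 10887 in siYAP. Replicate 1 was the highest siNT library and replicate 3 the highest siYAP library, and the groups did not overlap. The siYAP mean was 73.8% of the siNT mean (log2 -0.44, standard error 0.0430).

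CCT4, the delta subunit (chromosome 2, 61868089 to 61888804, minus strand), was at 21532, 20907 and 21536 in siNT and at 18832, 18331 and 18599 in siYAP. The libraries of each group lay close together, with an SD of 1.70% and 1.35% of the mean, and siYAP held 87.2% of the siNT level (log2 -0.20, standard error 0.0378). CCT5, the epsilon subunit (chromosome 5, 10249921 to 10266412, plus strand), had the highest counts of the family. It was at 36392, 35827 and 36367 in siNT and at 29897, 29412 and 30041 in siYAP, 82.3% of the siNT mean (log2 -0.28, standard error 0.0361).

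The other side of the ring is made of CCT3, CCT6A, CCT8 and CCT7, and it held both the smallest and the largest differences among the abundant subunits. CCT3, the gamma subunit (chromosome 1, 156308968 to 156367873, minus strand), was at 19310, 19388 and 19627 in siNT and at 17038, 16516 and 16639 in siYAP. The siYAP libraries held 86.1% of the siNT level (log2 -0.22, standard error 0.0378).

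CCT6A, the zeta subunit (chromosome 7, 56051630 to 56063989, plus strand), was at 7502, 7081 and 7229 in siNT and at 6558, 6813 and 6761 in siYAP. The gap between the nearest libraries was 268 counts, the smallest of the 8, and siYAP held 92.3% of the siNT level (log2 -0.12, standard error 0.0420). It passed the adjusted p of 0.05 under 8 of 16 alternatives, and with libraries scaled to equal totals its log2 fold change was -0.028.

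CCT8, the theta subunit (chromosome 21, 29055805 to 29073797, minus strand), was at 13151, 11913 and 12265 in siNT and at 8872, 8817 and 9051 in siYAP. Its siNT libraries were the most spread of the 8, at an SD of 5.13% of the mean with replicate 1 highest, and the siYAP libraries were all below them (71.6% of the siNT mean, log2 -0.48, standard error 0.0431).

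CCT7, the eta subunit (chromosome 2, 73233420 to 73253021, plus strand), was at 26492, 27168 and 27096 in siNT and at 16464, 15836 and 15856 in siYAP. The groups were 10029 counts apart at their nearest libraries, against SDs of 371 and 357 (n = 3). The siYAP mean was 59.6% of the siNT mean (log2 -0.75, standard error 0.0380), and 42 of the 1285 genes that averaged 5000 or more had a fold change as low or lower (3.27%). The same share was 10.3% for CCT8, 12.7% for CCT2, 20.6% for TCP1, 28.9% for CCT5, 38.5% for CCT3, 41.6% for CCT4 and 53.1% for CCT6A. These shares are places in a set whose limit was chosen after the values were seen, and they are no test.

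CCT6B, the alternative zeta subunit (chromosome 17, 34927859 to 34981078, minus strand), rested on few reads: 11, 17 and 5 in siNT and 23, 24 and 28 in siYAP. In normalized counts these were 11.5, 18.2 and 6.04 against 20.8, 23.7 and 26.6, with 2.67 counts between the nearest libraries. The log2 fold change was 1.05 with a standard error of 0.331 on the log2(value + 1) scale. Without siNT replicate 3, its lowest library, the value was 0.67 and it was no longer called, and DESeq2 on the reads did not call it either. LIG3 and ZNF830 overlap the GENCODE span of CCT6B on the other strand. They were at 921.7 ± 45.7 and 484.9 ± 30.1 normalized counts in siNT (SD, n = 3). Unless strand was used in counting, their reads and those of CCT6B cannot be told apart.

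**Figure D1:**
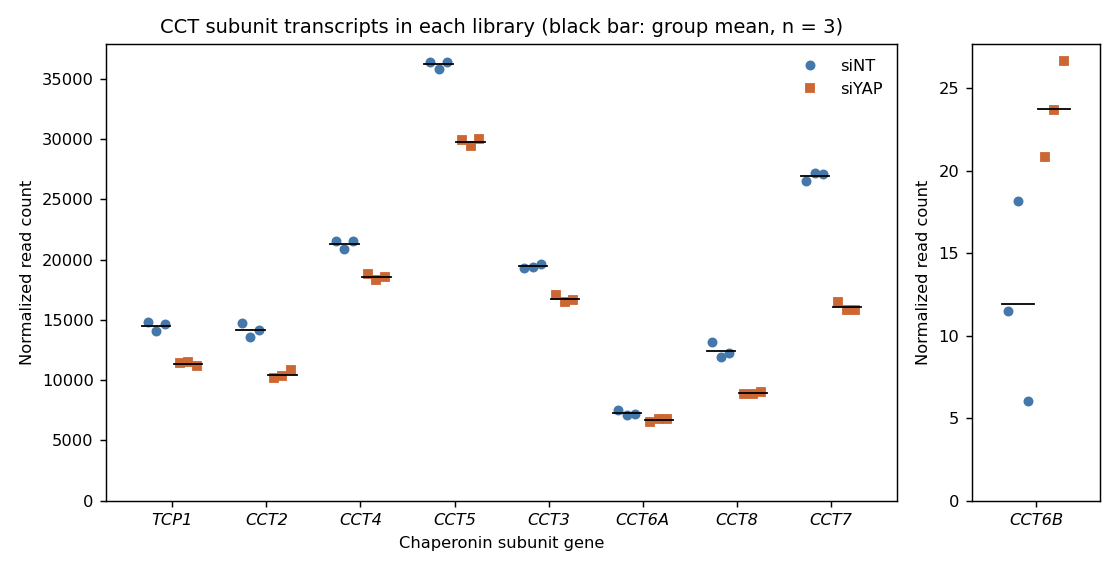
Normalized read counts of the 9 subunit genes (vertical axes, linear from 0, with a scale of its own for CCT6B) in the 3 siNT (circles) and 3 siYAP libraries (squares); black bars are group means. The siYAP points of all 8 abundant subunits lie under the siNT points, with the widest gap at CCT7 and the narrowest at CCT6A, and those of CCT6B lie above.

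The median log2 fold change of the 9 members was -0.28, and -0.32 for the 8 without CCT6B. It was 0.0036 over all genes tested and -0.14 over the 1285 abundant genes, with quartiles of -0.31 and 0.058. With libraries scaled to equal totals, which moved the median of all genes up by 0.0862, the members' median was -0.19. The called genes then split into 6051 higher and 3701 lower, against 4926 and 4841 with the authors' factors, and the 8 subunits still had negative fold changes, from -0.66 for CCT7 to -0.028 for CCT6A.

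**Figure D2:**
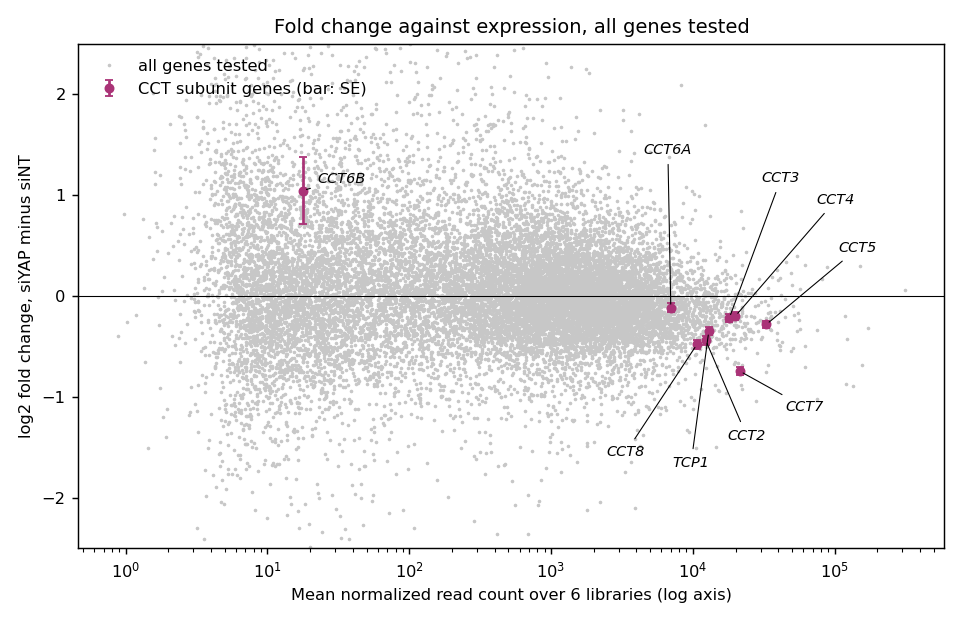
Log2 fold change (siYAP minus siNT) against the mean normalized count over the 6 libraries (log axis) for the 17200 genes tested in grey and the 9 subunit genes in colour, with standard errors; 162 genes lie beyond the vertical axis. The 8 abundant subunits sit below 0 at the right of the cloud, CCT7 lowest at -0.75, and CCT6B sits above 0 among genes of few reads.

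Levels of different genes were compared per length, as normalized counts per kilobase of annotated exons. In siNT, CCT4 was highest at 7535 ± 128 and CCT7 next at 7496 ± 103 (SD, n = 3), and these were not apart, since their libraries overlapped. CCT5 followed at 6199 ± 54.7, then CCT3 at 4839 ± 41.1, CCT8 at 3724 ± 191, CCT2 at 3279 ± 134, TCP1 at 2944 ± 76.2, CCT6A at 1864 ± 54.7 and CCT6B at 2.75 ± 1.40 (SD, n = 3). From CCT7 down, no library of a gene reached those of the next gene in the order. In siYAP, CCT7 was at 4470 ± 99.4 (SD, n = 3), below CCT5 at 5101 ± 56.5, and the rest of the order was that of siNT. The order depends on the length used. With the length of a single principal transcript, CCT7 was highest in both groups and 3 of the 9 genes kept their place in the siNT order.

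Summed over the 9 genes, the level per kilobase was 37884 ± 517 in siNT and 29424 ± 248 in siYAP (SD, n = 3), or 77.7% of the siNT value. As plain counts the 9 genes made up 0.492% to 0.508% of all normalized counts of a library under siNT, and 0.410% to 0.414% under siYAP. The groups did not overlap on this measure, which does not rest on the size factors. In bulk RNA, fewer transcripts in each cell and a smaller share of cells that hold them cannot be told apart.

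Differences in the share of each subunit restate the members' unequal fold changes, so they are a description and nothing is read from them. The share of CCT7 in the summed level per kilobase averaged 19.8% ± 0.512 over siNT, where no library was below 19.3%, and 15.2% ± 0.266 over siYAP, where none was above 15.5% (SD, n = 3). CCT8 (9.83% and 9.07%) and CCT2 (8.65% and 8.22%) also held a smaller mean share in siYAP. For CCT2 the libraries overlapped, at 8.45% to 8.92% in siNT and 7.94% to 8.53% in siYAP. The share of TCP1 was 7.77% in siNT and 7.84% in siYAP, and its libraries overlapped. That difference of 0.0728 points was 0.225 with principal transcript lengths.

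The shares of CCT4 (19.9% and 22.3%), CCT3 (12.8% and 14.2%), CCT5 (16.4% and 17.3%) and CCT6A (4.92% and 5.85%) were larger in siYAP, with no overlap between groups. Since shares sum to a fixed total, a smaller share of CCT7 raises the others. The ratio of the highest to the lowest of the 8 abundant subunits was 4.04 in siNT and 3.82 in siYAP. Single principal transcript lengths gave shifts of the same sign for all 9 genes, of -4.93 points for CCT7, and a ratio of 5.25 in siNT and 3.39 in siYAP.

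**Figure D3:**
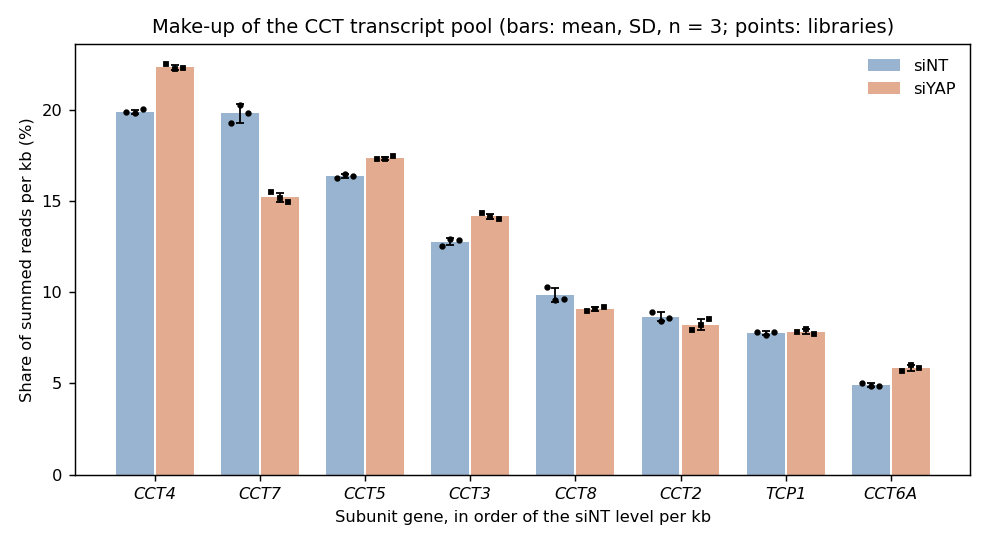
Share of each of the 8 abundant subunits in the summed normalized counts per kilobase of all 9 (vertical axis, percent, from 0), with group means as bars, SDs over 3 libraries as error bars and libraries as points. The CCT7 bar drops from 19.8% in siNT to 15.2% in siYAP and those of CCT4, CCT3, CCT5 and CCT6A are taller in siYAP.

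Pseudogene copies of the subunit genes could take up some of their reads. The table lists 5 pseudogenes of the family, and their levels were small beside those of the parent genes. CCT6P1 was at 107 ± 11.7 normalized counts in siNT and 88.9 ± 4.43 in siYAP (SD, n = 3), and CCT6P3 at 55.3 ± 11.4 and 41.5 ± 6.28 (SD, n = 3), against 7271 ± 213 in siNT for CCT6A. CCT8P1 was higher in siYAP, at 48.9 ± 6.83 and 75.1 ± 6.98 (SD, n = 3; log2 0.61, limma adjusted p = 0.00302), while CCT8 itself was lower. TCP1P1 and CCT5P1 were near 20 counts or below on average in siNT, at 19.4 ± 2.27 and 16.5 ± 4.11 (SD, n = 3). How reads were divided between such copies and their parents is not known here.

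Several subunit genes start near a gene on the other strand, and 6 such pairs with starts within 1000 bases were measured. The start of a gene is here the outer end of its GENCODE span. With the RefSeq starts used for the promoters the set of pairs would differ, as for CCT6B and CCT7. Of the 6 neighbours 2 fell, 2 rose and 2 were not called, where 28.1% of all genes tested were called lower and 28.6% higher. ATPSCKMT, which encodes a mitochondrial lysine methyltransferase and starts 24 bases from CCT5, averaged 1059 ± 35.3 in siNT and 785.7 ± 21.8 in siYAP (SD, n = 3), a log2 fold change of -0.43 (limma adjusted p = 1.14e-06), beside -0.28 for CCT5. COMMD1, a COMM-domain protein of endosomal sorting that starts 80 bases from CCT4 and overlaps it, fell by 0.32 on the log2 scale (limma adjusted p = 0.00254). The library kit keeps strand, but whether strand was used in counting is not stated, and without it reads of the pair cannot be told apart.

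PSPH, which makes serine from phosphoserine and starts 26 bases from CCT6A, rose from 381.6 ± 2.99 to 573.7 ± 17.9 (SD, n = 3; log2 0.59, limma adjusted p = 2.09e-07), beside -0.12 for CCT6A. MRPL18, a mitochondrial ribosomal protein gene 63 bases from TCP1, rose by 0.12 (limma adjusted p = 0.0407), a call that was kept under 9 of 16 alternatives. PRADC1, 182 bases from the GENCODE start of CCT7, was at 799.2 ± 53.9 and 777.8 ± 10.4 (SD, n = 3) beside the fall of CCT7. Its log2 fold change was -0.04 (limma adjusted p = 0.645). LIG3, the DNA ligase gene 584 bases from the GENCODE start of CCT6B, differed by -0.026 (limma adjusted p = 0.739). Both differences were positive with libraries scaled to equal totals. The RefSeq window of CCT6B, 34961411 to 34961710, lies far inside its GENCODE span, and the start of ZNF830 falls in that window. ZNF830 was not called either (log2 -0.047, limma adjusted p = 0.619). The difference between each subunit and its neighbour was not tested.

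Of the other overlapping genes, ACAT2, a cytosolic thiolase gene that meets the end of TCP1 on the other strand, was at 1773 ± 59.2 and 1880 ± 87.3 (SD, n = 3; limma adjusted p = 0.172), and TSACC, which overlaps CCT3, was near 13 counts, at 13.1 ± 3.75 in siNT (SD, n = 3).

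**Figure D4:**
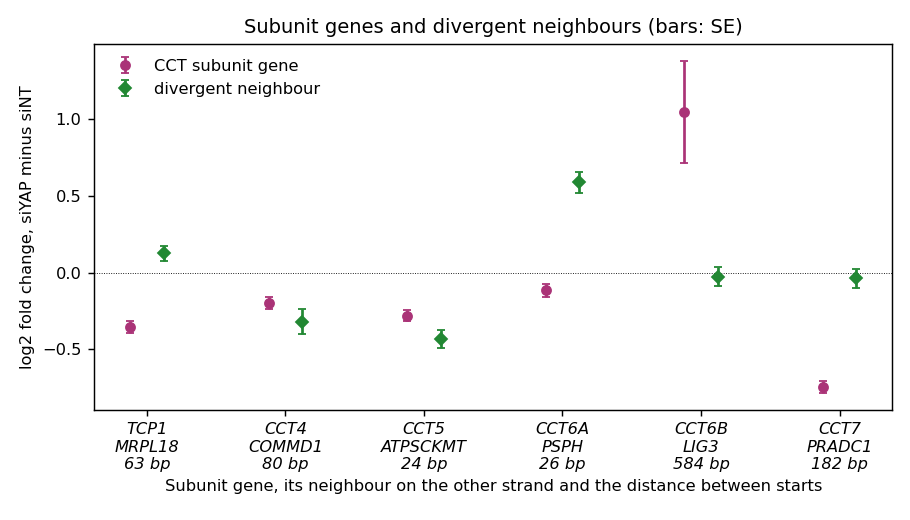
Log2 fold change (siYAP minus siNT, with standard errors) of 6 subunit genes (circles) and their neighbours on the other strand (diamonds). Each neighbour starts within 1000 bases of the GENCODE start of its subunit gene, and the distance is under each pair. COMMD1 and ATPSCKMT lie below 0 like their subunit genes, PSPH and MRPL18 above 0, and PRADC1 and LIG3 near 0.

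The 3′ UTRs were looked at because 3 heptamers had been picked out in an earlier search of these data for the lower fold changes of genes that hold them. In a single annotated 3′ UTR per gene (GENCODE 29), 2 of 9 members held at least 1 of these heptamers, against 37% of 11396 genes that averaged 50 or more. Those sites are given below, with the heptamer in capitals and up to 10 bases on each side.

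CCT4, position 597 of 603: acaaaagggtTTCTTAA
CCT5, position 388 of 1629: ctttcatattGAGAGGAatatgggctt
CCT5, position 1055 of 1629: gcattgtgatGATAAAGctcatgatga

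None of the 3 was in the searched 3′ UTRs of CCT7 (143 bases), CCT8 (151 bases) and CCT2 (245 bases), the members with the 3 largest falls. The sites in CCT4 and CCT5 belong to members with log2 fold changes of -0.20 and -0.28. The share of 37% was not matched for 3′ UTR length, and a short 3′ UTR has fewer places for a match. The heptamers were also picked from these data, so nothing is read from where they are present or absent.

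CCT works with partners that bring it clients or tune its cycle. Of 9 measured genes of prefoldin and of the phosducin-like proteins, 6 fell, 0 rose and 3 were not called, with a median log2 fold change of -0.23. Scaled to equal totals, 5 fell and 0 rose. Beside the counts of this list and those below, 28.1% of all genes tested were called lower and 28.6% higher. Of those that averaged 5000 or more, 54.4% were called lower. No list was tested as a set. The prefoldin subunits PFDN6 (log2 -0.43, standard error 0.0510), PFDN2 (-0.41, standard error 0.0529) and PFDN1 (-0.33, standard error 0.0483) fell, and so did TXNDC9, a phosducin-like regulator of CCT (-0.38, standard error 0.0605). Their limma adjusted p-values lay between 2.63e-07 and 1.48e-05. In each of these 4 genes all siYAP libraries were below all siNT libraries. PFDN4 and VBP1, also prefoldin subunits, were not called, at log2 fold changes of -0.055 and -0.083.

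The R2TP and prefoldin-like complex, which assembles other large complexes, had 7 of 9 measured genes lower, 0 higher and 2 not called, with a median of -0.33. The AAA+ ATPase genes RUVBL2 (log2 -0.54) and RUVBL1 (-0.33), the shared RNA polymerase subunit gene POLR2E (-0.46) and PDRG1 (-0.37) fell, with limma adjusted p-values between 8.19e-10 and 2.38e-06. RPAP3 and PIH1D1, which hold the complex together, had smaller values of -0.16 and -0.11, and were called under 12 and 4 of 16 alternatives. With equal totals 5 genes of the list were lower and 1 higher.

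Of 5 genes of other chaperonins 0 were lower, 2 were higher and 3 were not called, and the median was 0.053. HSPD1, the mitochondrial chaperonin Hsp60, was not called, at -0.05 on the log2 scale and 0.037 with equal totals, and its co-chaperonin HSPE1 rose by 0.15 (standard error 0.0579, limma adjusted p = 0.0346), a call kept under 9 of 16 alternatives. BBS10, a CCT-related gene of cilium assembly, rose by 0.27 (standard error 0.0770, limma adjusted p = 0.00458), while the related MKKS and BBS12 were not called. The difference between these genes and the subunits of CCT was not tested.

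The Hsp70 and Hsp90 system hands some clients on to CCT. Of its 27 measured genes 15 fell, 7 rose and 5 were not called, with a median of -0.11. Scaled to equal totals, 12 fell and 7 rose. Among all genes that averaged 5000 or more, 54.4% were called lower and the median was -0.14. STIP1, the adaptor between Hsp70 and Hsp90, was at 17964 ± 408 normalized counts in siNT and 13890 ± 249 in siYAP (SD, n = 3), a log2 fold change of -0.37. HSP90AB1 (log2 -0.32), the constitutive Hsp70 gene HSPA8 (-0.24), the inducible HSPA1A (-0.41) and the nucleotide exchange factor gene BAG1 (-0.36) fell too, with limma adjusted p-values of these 5 between 3.70e-08 and 7.52e-06. HSPA1A has a near-identical copy, HSPA1B, with which it can share reads. HSF1, the master regulator of the heat shock response, rose by 0.21 (standard error 0.0480, limma adjusted p = 0.000591), and HSP90AA1 was not called.

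Among the clients, of 15 measured tubulin genes 6 fell, 1 rose and 8 were not called, with a median of -0.09. With equal totals 5 fell and 3 rose. TUBB went from 41663 ± 1205 to 25945 ± 481 normalized counts, TUBA1B from 24288 ± 783 to 15461 ± 274 and TUBA1C from 13145 ± 223 to 7707 ± 94.9 (SD, n = 3). Their log2 fold changes were -0.68, -0.65 and -0.77, and a relation between tubulins and subunits was not tested. TUBA1A went the other way, from 1366 ± 34.8 to 2866 ± 20.4 (SD, n = 3; log2 1.07). For these 4 the limma adjusted p ran from 2.48e-14 to 4.70e-12. Tubulin genes are close in sequence, so reads may be shared among them.

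Of 12 measured genes of actins and actin-related proteins, 6 fell, 5 rose and 1 was not called, with a median of -0.06. Scaled to equal totals, 4 fell and 5 rose. ACTG1 had a log2 fold change of -1.02 (standard error 0.0399) and ACTB, at 192201 ± 9566 and 154022 ± 5563 normalized counts (SD, n = 3), one of -0.32 (standard error 0.0393). ACTR10 (0.42) and ACTR1B (0.30), subunits of the dynein activator dynactin, rose. For these 4 the limma adjusted p ran from 3.72e-15 to 3.72e-05.

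Of 6 measured genes of the tubulin folding cofactor list, which also holds the regulatory GTPase gene ARL2 and the cofactor relative TBCEL, 1 fell, 3 rose and 2 were not called, with a median of 0.20. Scaled to equal totals, 1 fell and 4 rose. TBCD (log2 0.39), TBCEL (0.65) and ARL2 (0.29) rose and TBCC (-0.37) fell, with limma adjusted p-values between 4.76e-09 and 0.000406. Of 21 other reported clients 9 fell, 6 rose and 6 were not called, with a median of -0.07. Scaled to equal totals, 6 fell and 7 rose. RPTOR, the mTORC1 scaffold (log2 -0.55), PLK1, a mitotic kinase (-0.50), and CCNE1, cyclin E (-0.71), fell, while GNB5, a G-protein beta subunit (0.58), rose, with limma adjusted p-values between 2.89e-09 and 2.06e-08.

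**Figure D5:**
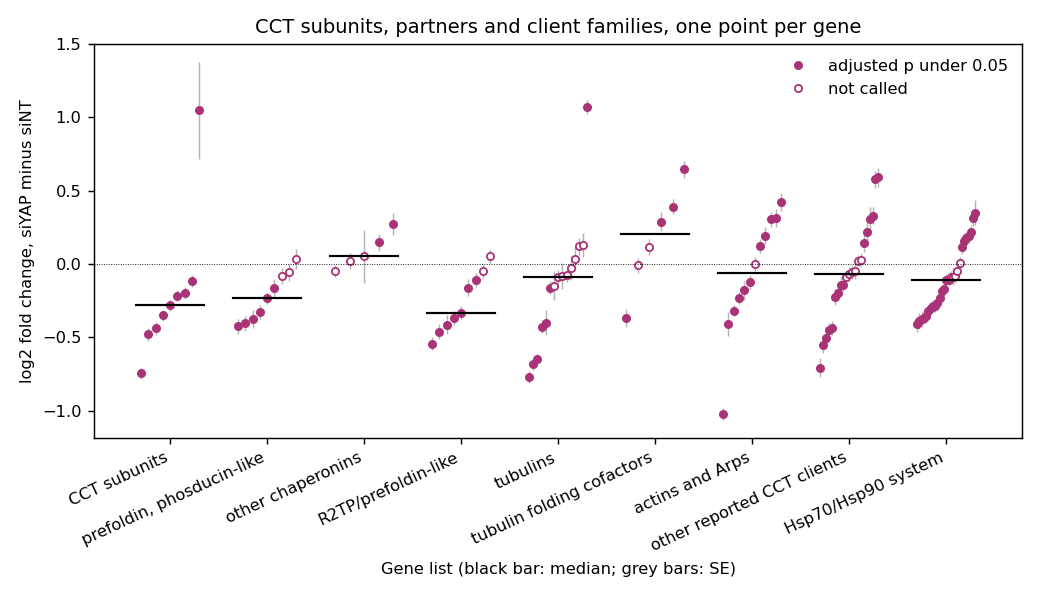
Log2 fold change (siYAP minus siNT) of each measured gene, with standard errors in grey, for the CCT subunits and 8 lists of partners and clients; filled points had an adjusted p under 0.05 in the fit across all genes and black bars are medians. The medians run from -0.33 in the R2TP and prefoldin-like list to 0.20 in the tubulin folding cofactors, with the CCT subunits at -0.28.

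Genes whose course over the 6 libraries was most like the mean course of the 8 abundant subunits were picked by the root mean square distance of centred log2 values, among 12519 genes that averaged 50 or more. The nearest 6 that are no members were NCAPD3, a condensin II subunit (distance 0.0115), the prolyl endopeptidase gene PREP (0.0120), GAR1, a protein of H/ACA ribonucleoproteins (0.0128), the cap-binding gene NCBP3 (0.0140), a gene with no symbol in the tables used (0.0146) and PCNA, the sliding clamp of DNA polymerases (0.0146). All 6 had fold changes between -0.37 and -0.34 on the log2 scale. The mean course was mostly the step between the groups, so the choice by distance fixes such values and nothing is read from them. Within the family only TCP1 (0.0165) came close to the mean course, at place 9 among the 12519 genes. CCT5 was at place 170 and CCT2 at 513, while CCT6A was at 3160 and CCT7 at 5980, on either side of the mean. Each of these subunits is part of that mean, and the places mostly restate their fold changes.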

How the data were processed

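Each deposited signal value is, from its steps, a read count per gene divided by 1 size factor per library: dividing by that step gave a whole number for 100% of values, within 0.01 of a read, which recovers the reads (1 read was worth 0.906 to 1.21 normalized counts). FastQC, HISAT2, HTSeq and DESeq2 and the builds hg19 and mm9 are named per the submitters' processing notes; versions, annotation, strand setting and filters: not given in the sources used here.

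Genes that reached 1 in 3 libraries (17200) were fitted with limma 3.58.1 (trend, robust) in R 4.3.3 on log2(value + 1), with group alone, and called at a Benjamini-Hochberg adjusted p under 0.05. Fold changes are on that scale, which understates those of low genes. SDs were taken on normalized counts. Whole reads were also tested with edgeR 4.0.16 (9582 genes called) and DESeq2 1.42.0 (8778 called), among 16 alternatives of scaling, pseudocount, filter, settings, replicate block and left-out libraries.

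Symbols came from a table by Ensembl identifier (16662 of 17211 genes, 16743 with GENCODE 29). Coordinates, neighbours, exon lengths (the union of exons) and 3′ UTRs (principal isoform, at least 20 bases) are from GENCODE 29 on GRCh38, promoters from RefSeq. The members and the gene lists were chosen with earlier results of these data known. Named were all members, up to 4 called genes per other list by smallest p (or 2 by level where fewer than 2 were called), preset client and heat shock genes, pseudogenes, neighbours, and the 6 nearest courses; other genes are named only to say which were not called or hold a call weakly.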

Additional observations from a re-analysis of the deposited data

How the results depend on the processing

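Under 16 alternatives, the log2 fold changes of all 9 members kept their sign, and 7 of the 9 (all but CCT6A and CCT6B) kept their call. The number of genes called over the whole table (9767) stayed between 8687 and 9818, and that of members called lower was 7 or 8. Scaling to equal totals moved the members' median from -0.28 to -0.19. The number of members called higher went from 1 to 0 with DESeq2, with limma without trend, and without siNT replicate 3, and ranged from 0 to 1 over the left-out libraries. With principal transcript lengths, 3 of 9 genes kept their place in the per-length order of siNT. Replicate numbers did not pair the samples: deviations of same-numbered libraries correlated at -0.338, -0.00827 and -0.0685. Those of differently numbered libraries ran from -0.269 (siNT 2 and siYAP 3) to 0.317 (siNT 1 and siYAP 3). With the replicate block, 9141 genes were called over the table, 7 members were called lower and 1 higher, and CCT6A was lost. CCT6B rests on 5 to 28 reads per library, and depth limits its value alone among the members.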
